A study of Mus musculus with 6 samples.

Results

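Transcripts of 10 genes that mark the endothelial cells of the liver sinusoids (Stab1, Stab2, Clec4g, Dnase1l3, Lyve1, Oit3, Ptprb, Fcgr2b, Kdr and Tek) were followed in mouse liver regenerating after portal vein surgery. They are 10 of the 20018 named genes on the array. Their probes were found through the RefSeq accession that the scanner files give for each spot, which yielded 12 probes, with 1 probe for each of 8 genes and 2 probes each for Ptprb and Kdr. The PVBL group was made up of male C57BL/6J mice in which the portal branch feeding the left lobes was ligated, and the right lobe, which keeps its portal inflow, was taken 3 days later. The sham group was made up of male C57BL/6J mice given a sham operation and sampled at the same 3 days. There were 3 samples of either kind, each hybridised to 1 single-colour Agilent array. The labels give no ages and name no animals, so separate mice are not stated and p-values rest on a spread between samples that may be technical.

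The sinusoids are the capillaries of the liver, and their endothelium is perforated by open pores and lacks a continuous basement membrane. Its cells take up waste molecules from the blood through scavenger receptors, lectins and Fc receptors, and they answer vascular growth factors through receptor tyrosine kinases. During liver regrowth they are known both to send growth signals to hepatocytes and to form new vessels, which in rodents follows the first wave of hepatocyte division. The samples were pieces of whole lobe, so that fewer sinusoidal cells and less RNA per cell cannot be told apart in any value here. Several of the markers are also made by other cells. Fcgr2b is made by B lymphocytes and macrophages, Stab1 by macrophages, Lyve1 by lymphatic endothelium, and Kdr, Tek and Ptprb by endothelium of many vessels.

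Between 48.0% and 52.6% of the 55681 probes were well above background on the PVBL arrays and between 50.7% and 53.6% on the sham arrays. All 12 marker probes were well above background on all 6 arrays, so every marker was tested and none passed the filter through 1 group alone. Levels are given as the scanner's processed signal divided by the 75th percentile of that signal on the same array, in multiples of that percentile. Differences are on the log2 scale, PVBL minus sham. All arrays lay on 1 slide, PVBL in its row 2 and sham in its row 1, and the effect of the row cannot be told apart from that of surgery. Precision is limited by there being only 6 arrays.

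All 10 markers had a lower mean in PVBL than in sham liver, as had 57.6% of all genes, and 5 of the markers fell by limma at an adjusted p under 0.05 (Clec4g, Dnase1l3, Ptprb, Oit3 and Fcgr2b). None was called higher, and none was higher at an unadjusted p under 0.05. Of all 13582 genes tested, 17.8% were called lower and 15.1% higher, 33.0% in all, with a median log2 difference of -0.10. The median over the 10 markers was -0.83. The PVBL and sham arrays did not overlap in 7 of the 10 markers, all lower in PVBL. Of all genes, 29.1% lay apart in that direction and 22.3% in the other. A uniform fall was not particular to these markers. All 12 tested hepatocyte markers also had a lower mean in PVBL, and in 8 of them the groups lay apart. By probe, 7 of the 12 were called lower, against 19.3% of all probes tested. On the third PVBL array most markers lay nearer to the sham level than on the other PVBL arrays. Without that array 9 of the 10 were called lower, beside 18.8% of all genes. With scaling to spiked-in control RNA in place of the 75th percentile, all markers but Tek still had a lower mean in PVBL but none was called, the median of all genes being 0.33 and that of the markers -0.40. That scaling shifts all genes alike, so the distance of the markers from all genes (-0.73) is the same under both scalings by construction.

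The lectin Clec4g (LSECtin), a sinusoidal surface receptor that binds glycans, had the largest difference of the 10. Its scaled signal was 13.4, 18.3 and 30.8 on the PVBL arrays, against 54.4, 58.3 and 52.4 on the sham arrays. Every PVBL array lay below every sham array, and the sham arrays differed little among themselves. Clec4g averaged 20.8 ± 8.97 in PVBL and 55.0 ± 3.02 in sham (SD, n = 3 each). The log2 difference was -1.49 ± 0.29 (SE; adjusted p = 0.00909), a 2.81-fold lower level in PVBL.

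Dnase1l3 encodes a secreted nuclease that degrades DNA bound in chromatin and on cell particles in blood. Its scaled signal was 0.704, 0.825 and 1.34 in PVBL, against 2.44, 2.68 and 2.29 in sham. The groups again did not overlap, with the highest PVBL value well under the lowest sham value. The fall was 2.68-fold (log2 difference -1.42 ± 0.24, adjusted p = 0.00552). Oit3, a secreted protein with a zona pellucida domain, had scaled signals of 1.90, 2.18 and 4.51 in PVBL and of 5.68, 6.38 and 6.79 in sham. It fell 2.36-fold (log2 difference -1.24 ± 0.31, adjusted p = 0.0236), the third PVBL array coming closest to sham.

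Among the signalling genes, Ptprb, the vascular endothelial phosphatase that removes phosphate from Tek and from VE-cadherin complexes, was measured by 2 probes. The brighter probe gave 8.64, 8.84 and 13.5 in PVBL and 24.3, 25.7 and 23.5 in sham. The dimmer probe gave 1.19, 1.07 and 1.67 in PVBL and 3.59, 3.53 and 3.30 in sham. Both probes separated the groups, and both placed the third PVBL array above the other PVBL arrays. The log2 difference was -1.28 ± 0.19 in the brighter probe (adjusted p = 0.00357) and -1.43 ± 0.18 in the dimmer one (adjusted p = 0.00256 over all probes), which are falls of 2.42-fold and 2.70-fold.

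Kdr, the main receptor tyrosine kinase for vascular endothelial growth factor, also had 2 probes, and these differed. The brighter probe, printed as 1 spot per array, gave 21.8, 26.1 and 17.7 in PVBL and 30.5, 28.7 and 31.2 in sham. The dimmer probe, printed as 10 spots per array, gave 2.79, 3.01 and 5.32 in PVBL and 8.34, 8.37 and 7.40 in sham. Both probes were lower on every PVBL array than on any sham array, but the third PVBL array changed place between them. Among the PVBL arrays it was lowest by the brighter probe and highest by the dimmer one. The brighter probe, which stood for the gene, missed the threshold with a log2 difference of -0.48 ± 0.16 (adjusted p = 0.0606, 95% interval -0.86 to -0.09). The dimmer probe fell by 1.18 ± 0.25 (adjusted p = 0.0146 over all probes, 95% interval -1.77 to -0.59), a 2.26-fold lower level, and this call was lost without sham replicate 1 (-1.15, adjusted p = 0.0534). With the mean of both probes Kdr fell by 0.83 (adjusted p = 0.00360).

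**Figure D1:**
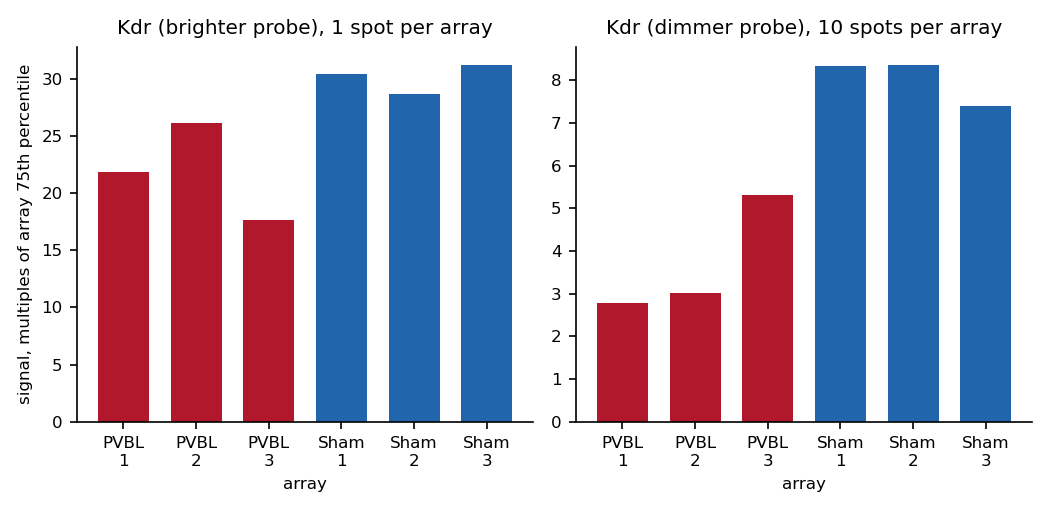
Scaled signal of the Kdr probes on each array (y axis, multiples of the array's 75th percentile, starting at 0; x axis, arrays, PVBL in red and sham in blue). In both panels each PVBL bar is lower than each sham bar, but PVBL 3 has the lowest bar for the brighter probe (17.7) and the highest PVBL bar for the dimmer one (5.32).

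Tek (Tie2) is the angiopoietin receptor of endothelial cells. Its scaled signal was 0.158, 0.183 and 0.336 in PVBL and 0.267, 0.313 and 0.214 in sham. The groups overlapped, since the third PVBL array was above all sham arrays and the other PVBL arrays below them. The log2 difference was -0.29 ± 0.30 (adjusted p = 0.471), and its 95% interval of -0.99 to 0.41 holds changes in either direction. Its sign turned with spike-in scaling (0.14), as it did for 56.8% of all genes with a negative difference. Without PVBL replicate 3 Tek was called lower (-0.62, adjusted p = 0.0473).

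Of the scavenger and Fc receptors 1 was called. Fcgr2b, the inhibitory IgG receptor through which sinusoidal cells clear small immune complexes, had scaled signals of 1.01, 1.29 and 1.99 in PVBL and of 2.61, 2.59 and 2.41 in sham. The groups did not overlap, and the fall was 1.85-fold (log2 difference -0.89 ± 0.24, adjusted p = 0.0304). Stab2 (stabilin-2), the endocytic receptor for hyaluronan, gave 7.22, 6.78 and 12.0 in PVBL and 12.8, 15.7 and 12.7 in sham. It narrowly missed the threshold (-0.71 ± 0.23, adjusted p = 0.0551, 95% interval -1.26 to -0.16), although its groups did not overlap. Stab1 (stabilin-1), a related scavenger receptor, gave 3.03, 3.00 and 6.33 in PVBL and 5.85, 7.29 and 6.79 in sham. Here the third PVBL array lay among the sham arrays, and the difference was -0.78 ± 0.30 (adjusted p = 0.0827, 95% interval -1.48 to -0.08).

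Lyve1, a hyaluronan receptor of sinusoidal and lymphatic endothelium, had the widest spread of the 10. Its scaled signal was 0.474, 0.417 and 1.66 in PVBL and 0.669, 1.19 and 1.63 in sham, so the highest of all 6 arrays was a PVBL array and the groups overlapped. The log2 difference was -0.66 ± 0.56 (adjusted p = 0.395, 95% interval -1.99 to 0.67), and without PVBL replicate 3 it was -1.29 (adjusted p = 0.0365).

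**Figure D2:**
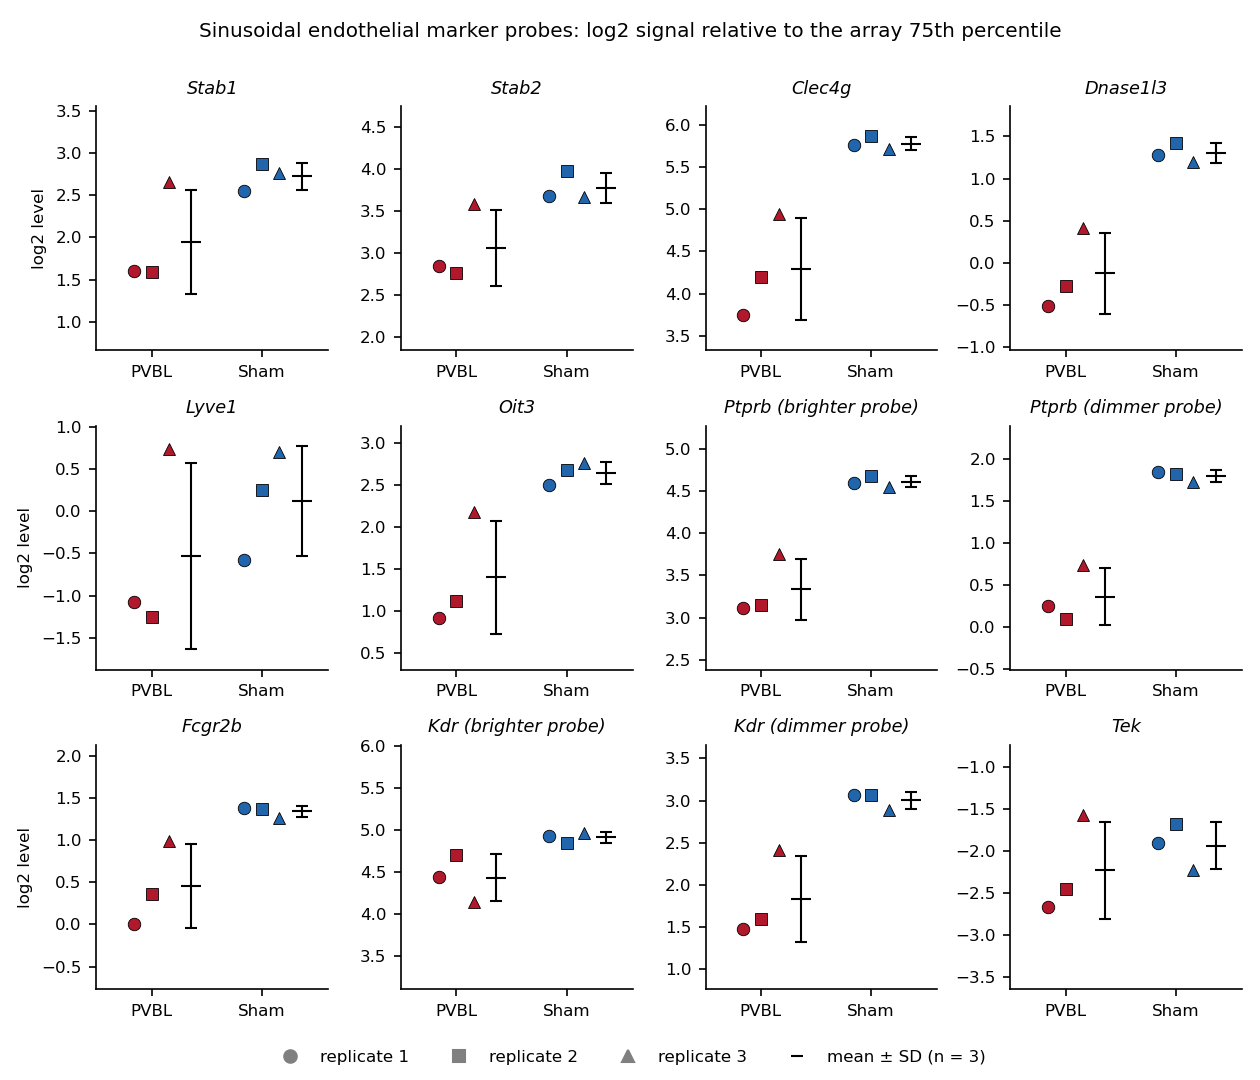
Log2 level of each marker probe (y axis, relative to the array's 75th percentile, all panels spanning the same range) on each PVBL (red) and sham (blue) array, with replicates by symbol and mean ± SD at the right of each group. PVBL 3 (triangle) is the highest PVBL array in 11 of the 12 panels, and the groups overlap only for Stab1, Lyve1 and Tek.

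Fcgr2b and the dimmer Kdr probe were printed as repeated spots. The spots of 1 probe on 1 array varied with a coefficient of variation of 1.75% to 5.41% for Fcgr2b and 2.46% to 9.41% for the dimmer Kdr probe, with 8 to 10 spots used per array. On the log2 scale their SD between spots was at most 0.08 for Fcgr2b and 0.14 for Kdr. Between the PVBL arrays the SD was 0.50 for Fcgr2b and 0.51 for that Kdr probe, and between the sham arrays 0.06 and 0.10. An array's value is a mean over its spots, so these SDs between spots and between arrays are not like quantities, and were not tested against each other.

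The PVBL arrays did not respond alike. Relative to the sham mean the 10 markers averaged -1.29 on PVBL 1, -1.14 on PVBL 2 and -0.34 on PVBL 3 on the log2 scale. PVBL 3 was the highest of the PVBL arrays in 11 of the 12 marker probes and the lowest in the other one, the brighter Kdr probe. Among all genes with a negative difference it was the highest PVBL array in 28.4%. Clec4g stood at 24.3%, 33.2% and 56.0% of its sham mean on PVBL 1, PVBL 2 and PVBL 3, and Dnase1l3 at 28.6%, 33.5% and 54.2%. For these genes and for both Ptprb probes the level on PVBL 3 was still well below sham. Stab1 stood at 45.7%, 45.4% and 95.6%, close to the sham mean on PVBL 3.

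Markers of other cells moved on PVBL 3 as well. The 13 tested Kupffer cell markers (liver macrophage genes) summed to 156, 158 and 363 in scaled signal on PVBL 1 to 3 and to between 210 and 229 in sham, and averaged -0.55, -0.58 and 0.66 relative to sham. None of them was called lower and 1 was called higher, beside 17.8% and 15.1% of all genes. The 1 called higher was Marco, a macrophage scavenger receptor (5.72-fold). Without PVBL 3, 11 of the 13 were called lower, beside 18.8% of all genes and 9 of the 10 sinusoidal markers. Marco was still higher then. Clec4f, a defining Kupffer lectin, had a scaled signal of 14.2, 13.7 and 34.7 in PVBL and 28.6, 26.0 and 29.9 in sham (log2 difference -0.57 ± 0.35, adjusted p = 0.240). The 12 hepatocyte markers averaged -0.37, -0.33 and -0.74 on PVBL 1 to 3, lowest on the array where the sinusoidal and Kupffer markers were highest. Their sums ran from 5719 to 7491 in PVBL and from 8568 to 9570 in sham. No tested gene of these lists was at 0, and their part in the spread of the sinusoidal markers was not tested.

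**Figure D3:**
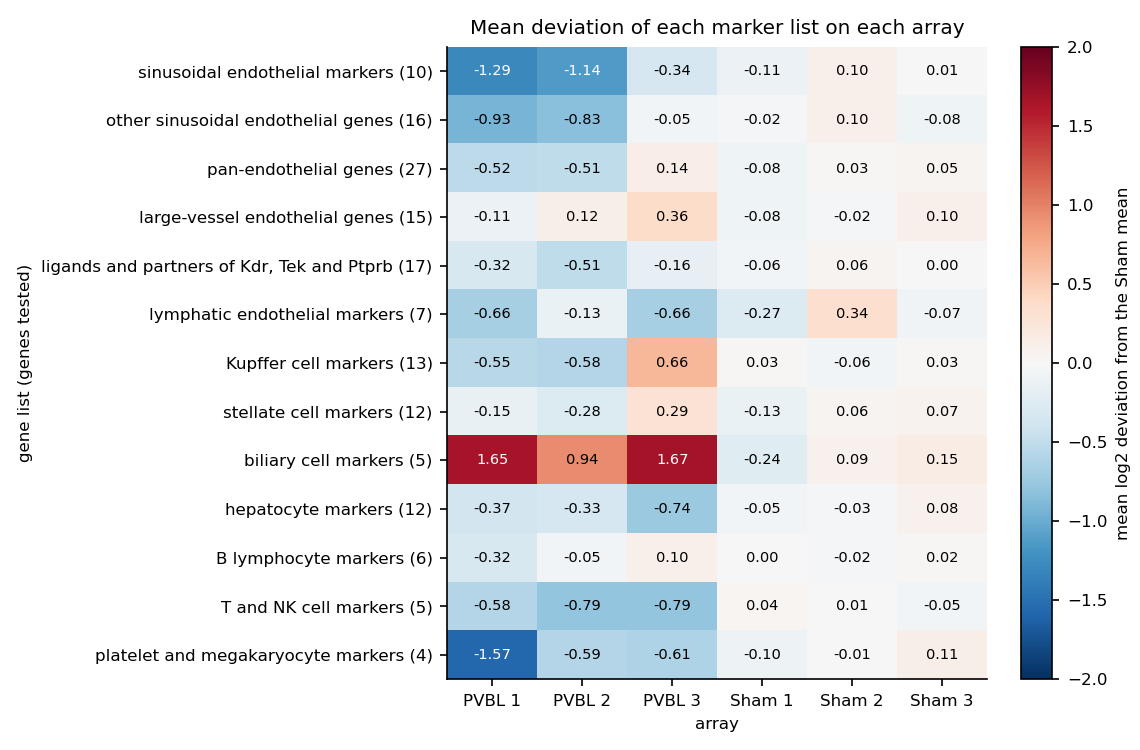
Mean log2 deviation of each marker list from its sham mean (colour and printed value) on each array (x axis), with the number of genes tested in brackets. The sinusoidal markers stand at -1.29, -1.14 and -0.34 on PVBL 1 to 3, and the Kupffer cell markers change sign on PVBL 3 (0.66).

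Without PVBL replicate 3 the median of the 10 markers was -1.22, and every marker but Kdr was called lower. The brighter Kdr probe, which runs the other way on that array, was then at -0.33 (adjusted p = 0.0962). Leaving out any other single array left 3 or 4 markers called, in fits that also called fewer of all genes lower. Those shares were 11.7% without PVBL 1, 15.6% without PVBL 2, and 7.84%, 10.5% and 10.9% without sham 1, 2 and 3. Clec4g, Dnase1l3 and Ptprb were called lower in all 6 fits that left out a single array. Their log2 differences ran from -1.82 to -1.21, from -1.69 to -1.23 and from -1.49 to -1.16. Fcgr2b lost its call without PVBL 1, PVBL 2 or any 1 sham array (-0.92 to -0.66), and Oit3 likewise (-1.31 to -0.999).

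**Figure D4:**
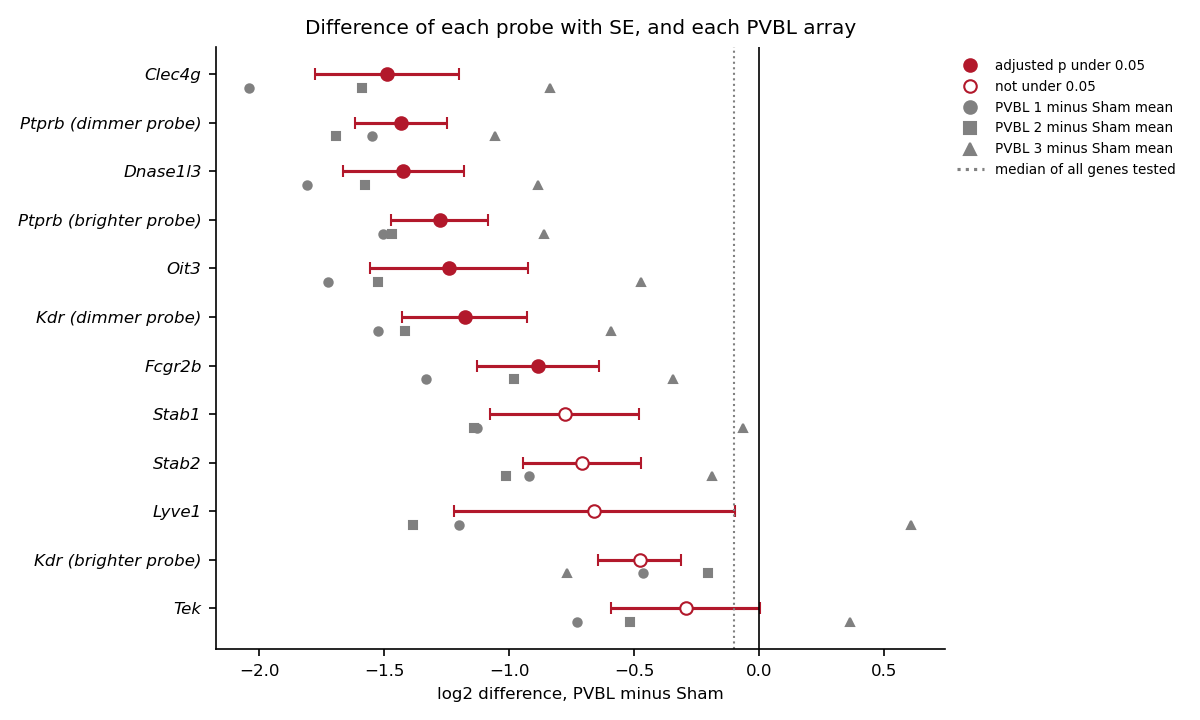
Log2 difference of each marker probe, PVBL minus sham (x axis; red points with SE bars, filled where the adjusted p over all probes was under 0.05), with the deviation of each PVBL array from the sham mean in grey. The dotted line is the median of all genes tested (-0.10), and 7 of the 12 probes are filled, from Clec4g at -1.49 to Fcgr2b at -0.89.

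Promoter sequences are shown for Clec4g and Fcgr2b, the called markers with an entry in the RefSeq promoter table (build GRCm38.p6), and for Stab2, whose groups lay apart without a call. Entries were found for 6 of the 10 markers. Each sequence holds the 250 bases before the annotated start, in the direction of transcription, at chr8:3720652-3720901 (minus strand) for Clec4g, chr1:170976072-170976321 (minus strand) for Fcgr2b and chr10:87007943-87008192 (minus strand) for Stab2. These are the coordinates of that build, which is not the one the array was designed on. Capitals mark GGAAG, a core of the sites bound by ETS factors (the family of the endothelial regulator Erg), on either strand.
Clec4g: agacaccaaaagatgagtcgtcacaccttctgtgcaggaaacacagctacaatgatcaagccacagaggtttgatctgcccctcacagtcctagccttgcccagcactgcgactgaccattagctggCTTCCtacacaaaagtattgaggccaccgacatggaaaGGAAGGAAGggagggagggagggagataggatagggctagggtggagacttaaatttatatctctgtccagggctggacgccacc
Fcgr2b: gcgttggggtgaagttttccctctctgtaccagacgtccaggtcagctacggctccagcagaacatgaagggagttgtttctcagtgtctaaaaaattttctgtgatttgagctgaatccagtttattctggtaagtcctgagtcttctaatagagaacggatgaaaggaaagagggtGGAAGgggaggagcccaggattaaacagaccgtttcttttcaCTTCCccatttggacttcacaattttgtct
Stab2: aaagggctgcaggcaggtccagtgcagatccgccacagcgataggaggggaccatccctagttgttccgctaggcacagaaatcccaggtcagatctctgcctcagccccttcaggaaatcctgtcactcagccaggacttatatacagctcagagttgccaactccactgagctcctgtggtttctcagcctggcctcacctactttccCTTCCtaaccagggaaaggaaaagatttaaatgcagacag

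The motif was found 3 times in Clec4g, where 2 matches overlap by 1 base, 2 times in Fcgr2b and 1 time in Stab2. It stood in 5 of the 6 marker promoters (all but Tek) and in 63.6% of the 27025 promoters of the same length in the table. The GATA motifs AGATAA and TGATAA and the AP-1 motif TGANTCA were in none of the 6 windows on either strand, against 10.3%, 8.16% and 6.87% of all promoters. These counts describe the letters only.

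Of 16 other tested genes known from sinusoidal endothelium, 4 were called lower and 1 higher, beside 17.8% and 15.1% of all genes, with a median log2 difference of -0.70, and 14 had a negative difference. Mrc1, the mannose receptor that clears collagen fragments and enzymes, had the largest fall at 2.25-fold (-1.17 ± 0.31, adjusted p = 0.0290). F8, clotting factor VIII, which sinusoidal cells secrete, fell 1.91-fold (-0.94 ± 0.16, adjusted p = 0.00538), with scaled signals of 0.346, 0.408 and 0.439 in PVBL and 0.770, 0.861 and 0.655 in sham. Adam23 and the receptor Gpr182 fell by 0.98 ± 0.30 and 0.73 ± 0.21. The call of F8 held without any 1 array, while those of Mrc1, Adam23 and Gpr182 were lost without any 1 array other than PVBL 3. The member called higher was Cd36, a fatty acid and thrombospondin receptor that hepatocytes and macrophages also make (0.59 ± 0.18, adjusted p = 0.0415). Its call was lost without PVBL 1, PVBL 3 or any 1 sham array. Without PVBL 3 the list had 11 genes called lower and none higher, and without any other single array 1 called lower.

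Of 27 tested genes listed as general endothelial genes, 7 were called lower and 2 higher, beside 17.8% and 15.1% of all genes. The list median was -0.26. The general endothelial adhesion genes Pecam1 (-0.26 ± 0.20, adjusted p = 0.347) and Cdh5, VE-cadherin (-0.15 ± 0.26, adjusted p = 0.662), and the Tie-family receptor gene Tie1 (0.03 ± 0.19, adjusted p = 0.923) missed the threshold. Cdh5 had a scaled signal of 1.96, 2.32 and 3.93 in PVBL and 2.70, 2.89 and 3.16 in sham, with the third PVBL array above all others. The tight junction gene Cldn5 fell 2.66-fold and the guidance receptor Robo4 2.24-fold (-1.41 ± 0.29 and -1.16 ± 0.29), the call of Robo4 being lost without any 1 array other than PVBL 3. Cd34, a sialomucin of capillary endothelium, was called 1.80-fold higher (0.85 ± 0.26, adjusted p = 0.0428), and lost that call without PVBL 1 or any 1 sham array. Without PVBL 3 the list had 15 genes called lower and 1 higher, without sham 3 it had 1 called lower, and without any of the other arrays 2.

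Genes of arteries, portal and central veins split. Of 15 tested, 5 were called lower and 4 higher, beside 17.8% and 15.1% of all genes. The list median was 0.22. Thbd, the thrombin receptor thrombomodulin, rose 5.17-fold (2.37 ± 0.24, adjusted p = 0.000764), with scaled signals of 3.68, 6.57 and 6.31 in PVBL and 0.911, 1.02 and 1.18 in sham. The Notch ligand gene Dll4 rose 3.43-fold and Wnt9b, a Wnt ligand of central vein endothelium, 2.31-fold (1.78 ± 0.27 and 1.21 ± 0.13). Ackr1, a chemokine receptor of venules, fell 2.87-fold and the adhesion receptor Selp 2.52-fold (-1.52 ± 0.31 and -1.33 ± 0.15). Each was well above background on 2 of the 3 PVBL arrays and passed the filter through the sham arrays alone, so these folds rest partly on values near background. Where probes had to be well above background on all arrays, 13 genes of the list were tested and 3 were called lower. The calls of these 5 genes held without any 1 array.

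Of 17 tested ligands and partners of Kdr, Tek and Ptprb, 5 were called lower and none higher, beside 17.8% and 15.1% of all genes. The list median was -0.10. The number called lower was 6 without PVBL 3, 3 without PVBL 1 or sham 3, 2 without PVBL 2 or sham 1 and 1 without sham 2. Vegfa, the chief ligand of Kdr, fell 2.08-fold (-1.06 ± 0.14, adjusted p = 0.00221), with 3.89, 3.11 and 3.30 in PVBL and 7.28, 7.66 and 6.45 in sham. Vegfa thus lay low on all PVBL arrays, the third included. Flt1, the other receptor for Vegfa and a member of the general endothelial list as well, fell 1.70-fold (-0.76 ± 0.19, adjusted p = 0.0225). Its call was lost without any 1 array other than PVBL 3. The co-receptor gene Nrp1 fell by 0.73 ± 0.17, and lost its call without PVBL 2, sham 1 or sham 2. The Tek ligand genes Angpt1 (-0.60 ± 0.20, adjusted p = 0.0592) and Angpt2 (-0.87 ± 0.31, adjusted p = 0.0684) missed the threshold, Angpt1 being well above background on 2 of the 3 PVBL arrays. Angpt1 was called lower without PVBL 1 (-0.82) and Angpt2 without sham 1 (-1.23).

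**Figure D5:**
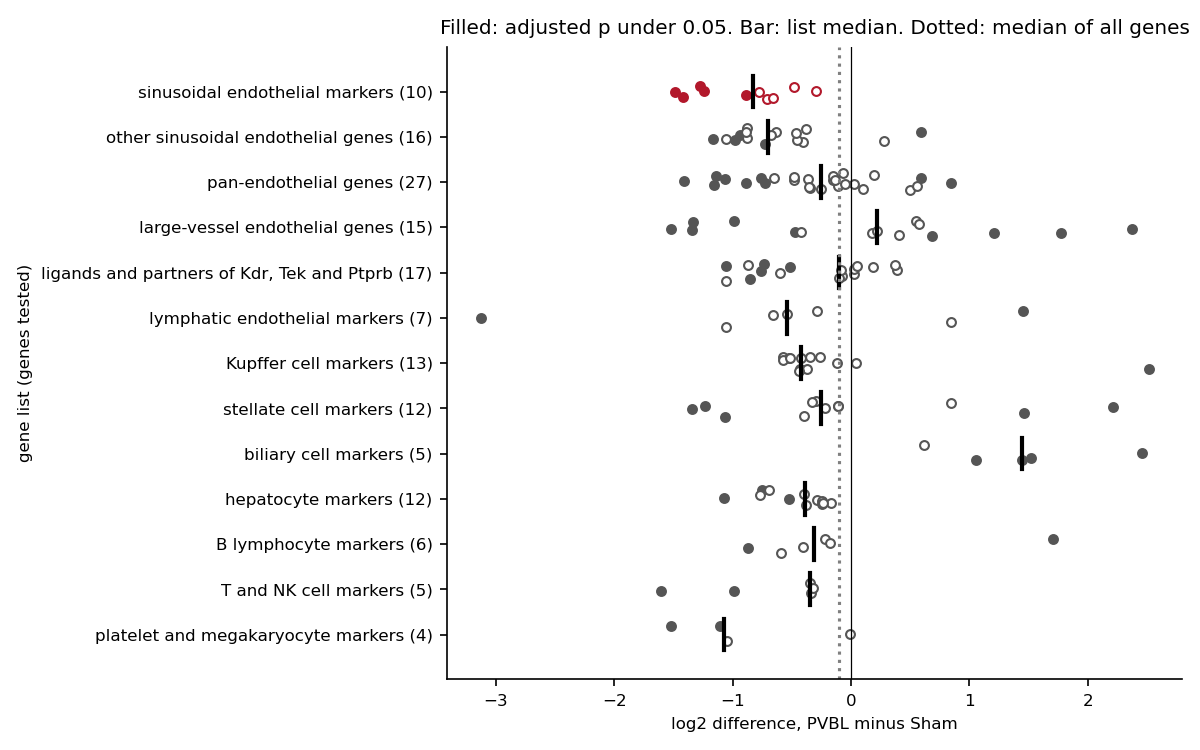
Log2 difference, PVBL minus sham (x axis), of the tested genes of each list (rows, number tested in brackets; filled where the adjusted p over all genes was under 0.05, bars at list medians). The 10 sinusoidal markers (red, top) all lie below 0 with a median of -0.83, and large-vessel genes lie on both sides of 0 with a median of 0.22. All tested genes of the hepatocyte, T and NK cell and platelet lists lie below 0 as well.

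Among markers of further cells, the 12 stellate cell genes held 3 called lower and 2 higher, beside 17.8% and 15.1% of all genes. Without single arrays 2 to 5 were called lower, the most without PVBL 3, and 1 or 2 higher. Ecm1, which quiescent stellate cells and hepatocytes make, fell 2.54-fold, and the collagen gene Col1a1 rose 4.64-fold. Of 6 B lymphocyte genes 1 was called lower (Cd22, -0.87 ± 0.12) and 1 higher (Blnk, 1.70 ± 0.16), and 4 were not called. The 4 tested platelet genes had a median of -1.08, with Ppbp 2.88-fold lower. Of 7 lymphatic endothelial genes, which include Lyve1, 1 was called lower (Ccl21a, a lymphatic chemokine with near-identical gene copies, 8.76-fold) and 1 higher (Pdpn), the count of lower calls being 3 without PVBL 3 and the higher call being lost without sham 1 or any 1 PVBL array. The 6 genes of proliferating cells all rose, with a median of 6.12, and summed to 87.0, 110 and 71.3 in scaled signal in PVBL against 1.18 to 1.42 in sham. Of 5 biliary genes 4 were called higher (median 1.44), of 12 hepatocyte genes 3 were called lower (median -0.39), and of 5 T and NK cell genes 2 were called lower (median -0.35), where 17.8% of all genes were. No hepatocyte gene was called lower by limma without sham 2 (5 at an unadjusted p under 0.05), 1 was without sham 1 and 2 without sham 3. Of the T and NK cell genes 1 was called lower without sham 1 or sham 3. The part of these cell types in the falls of the sinusoidal markers was not tested.

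The genes with profiles most like the mean of the 10 markers were Gimap6, Slc25a47, Btnl9, Esrrb and Pde2a. Likeness was the root mean square distance between log2 profiles over the 6 arrays, each centred on its own mean, and it ran from 0.079 for Gimap6 to 0.107 for Pde2a. Their log2 differences were -1.01, -1.01, -1.04, -0.99 and -0.72, the first 4 of them called lower, where 17.8% of all genes were. Having been picked by this likeness, they were bound to show a fall near that of the markers. Their values and calls are thus no separate evidence. Btnl9 was well above background on 2 of the 3 PVBL arrays and passed the filter through the sham arrays alone. Its call held without any 1 array, while those of Gimap6, Slc25a47 and Esrrb each depended on at least 4 of the 6 arrays.

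The authors' deposited value table held 8 of the 12 marker probes, from the 6 genes Clec4g, Dnase1l3, Oit3, Ptprb, Fcgr2b and Kdr. The groups lay apart in 100% of the rows of that table but in 30.6% of the array's probes, so presence in it is no separate evidence. The absent markers were Stab1, Lyve1 and Tek, whose groups overlapped, and Stab2, whose highest PVBL level (12.0) was close to its lowest sham level (12.7).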

How the data were processed

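Total RNA from right-lobe liver was labelled with Cy3, per the labels' protocols, and the labels' source names gave group and replicate. The deposited scanner files hold intensity values per spot, made with Agilent Feature Extraction 10.7.3.1 per the file headers. The submitters' processing notes name version 9.1. The deposited value table holds log2 values whose processing is not given in the sources used here. They matched the scaled scanner values centred on each probe's median (r of at least 0.9997 per array), and their column medians were -0.18, -0.15 and -0.22 for PVBL and 0.17, 0.15 and 0.18 for sham, so scale and direction are settled and levels are lost.

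Control spots and outlier spots (115 to 201 per array) were left out, the log2 processed signals of each probe's spots were averaged, and the array's 75th percentile over probes was subtracted. A probe counted as above background on an array when a share of over 0.5 of its spots did, and entered the test if every array of 1 group or both met this (27909 of 55681 probes). Symbols came from unversioned RefSeq accessions (GRCm38.p6 table, 26413 probes matched), and the brightest tested probe stood for a gene (13582 genes). The comparison was made in R 4.3.3 by limma 3.58.1 (lmFit, eBayes, two-sided, Benjamini-Hochberg over all genes or all probes). SE values are limma's. The script was tested on simulated data. Normexp used the median spot signal, since the files have no mean signal column.

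All probes of the markers are described. Of other lists the rule took up to 6 called genes with the largest change, or the 2 brightest, beside 10 fixed genes, and a selection of these is named. Blnk and Cd22 are named under it. The markers, lists and rules were chosen with earlier results of these data known. Replicate numbers were not taken as pairs, because deviations of same-numbered samples correlated at 0.17, -0.06 and 0.19. Same-numbered samples also shared a column of the slide, so the replicate number stands for slide position as well.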

Additional observations from a re-analysis of the deposited data

How the results depend on the processing

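Spike-in scaling moved the most. It set the median of all genes at 0.33 in place of -0.10, and the count of genes called was 1753 (1569 higher, 184 lower) beside 4476 (2053 higher, 2423 lower). With median scaling the split was 2639 higher and 1559 lower, and with quantile scaling 2332 higher and 2162 lower. With spike-in scaling 0 of the 10 markers were called lower by limma (4 at an unadjusted p under 0.05) and 2918 probes were called beside 8516. Lower calls also went to 0 under it in the other sinusoidal, general endothelial, large-vessel, ligand, stellate, hepatocyte, B lymphocyte and platelet lists. The lymphatic list and the T and NK cell list each kept 1. The marker median was then -0.40. Its distance from the median of all genes cannot change under a scaling that shifts every gene alike, so that distance says nothing about stability. Signs turned with spike-in scaling for Tek (0.14), Pecam1 (0.17), Cdh5 (0.27) and Alb (0.15), with quantile scaling for Alb (0.080), and with array weights for Tie1 (-0.039). Without single arrays Cdh5 was between -0.45 and 0.053 and Tie1 between -0.16 and 0.13. The count of markers called lower was 3 with no filter on dim probes, where 7.90% of all genes were called lower. It was 9 with array weights, where 25.3% of all genes were. With the other settings of all 10 markers and all arrays, apart from spike-in scaling, it was 4 to 6, beside 11.5% to 18.2% of all genes. With spike-in scaling 1.35% of all genes were called lower. In the authors' value table it was 6 of the 6 markers held there, where 52.4% of the genes with a value were called lower. When single arrays were left out, the count of markers called lower ranged from 3 to 9, beside 7.84% to 18.8% of all genes. The count of genes called then ranged from 2391 to 4782 and that of probes called from 4160 to 8496. Every marker was below 0 in all settings in which it had a value, except Tek with spike-in scaling. The markers Clec4g, Dnase1l3 and Ptprb lost their call with spike-in scaling only. Of the other named genes lower in PVBL, so did F8, Cldn5, Ackr1, Selp and Vegfa, in the settings in which each was tested. The fit with replicate numbers paired changed no marker's call: with the replicate block 5 markers were called lower and 3804 genes were called, and not every sample correlated best with its own number. Signal over background limits the faint probes: 27909 of 55681 could be tested.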
